A study of Rattus norvegicus with 18 samples.

Results

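The genes described here fold, check, export and discard the proteins made at the endoplasmic reticulum (ER) of rat nucleus pulposus, the soft core of the intervertebral disc. They are the rows of the deposited gene table whose KEGG annotation holds the term Protein processing in endoplasmic reticulum. Rows that also carry N-Glycan biosynthesis, genes whose name starts with Eif, and the cytosolic heat shock genes Hspa1a, Hspa1b, Hspa8, Hsph1, Hsp90aa1, Hsp90ab1, Dnajb1 and Cryab were left out. The term was on 159 rows, of which 14, 5 and 7 were left out on these grounds, so that 133 remained. Of these, 121 reached 1 FPKM (fragments counted on a gene, divided by its length and by the depth of the library) in at least 3 of the 9 libraries and are the members. The table holds 18923 genes, of which 11708 passed the same minimum.

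The study followed nucleus pulposus through the ageing of rats, with 3 input RNA libraries each at 2, 10 and 20 months. Input libraries hold fragmented poly(A) RNA that did not go through the m6A immunoprecipitation of the study, so they measure RNA abundance. The immunoprecipitated libraries are not analysed here. The labels give the age and the tissue of each library, name no treatment or genotype, and do not give strain or sex. Nor do they say whether the 3 libraries of an age came from separate or pooled animals, so the spread behind each p-value may be technical alone.

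Most proteins that a cell secretes enter the ER as they are made, through the Sec61 channel, and fold there with the help of chaperones such as BiP (Hspa5), disulfide isomerases and the sugar-reading chaperones calnexin and calreticulin. Folded cargo leaves in COPII-coated vesicles, while proteins that do not fold are sent back to the cytosol and degraded (ER-associated degradation, ERAD), and a build-up of unfolded protein switches on the unfolded protein response (UPR) through the sensors Atf6, Ern1 (IRE1) and PERK. Cells of the nucleus pulposus secrete large amounts of collagen and aggrecan and so depend on this route.

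The 20-month libraries stood apart from the other libraries before any member is considered. Their inferred single-read length was 141 bases, against 132 bases at 2 and 10 months. This length was not measured but read off as the commonest among the small products of coverage and transcript length. Of the 20-month bases 80.1 to 80.9% lay on listed transcripts, against 85.7 to 86.1% at 2 months. Ribosomal protein genes took 19.2 to 19.8% of the summed FPKM at 20 months, against 12.8 to 13.1% at 2 months, and mitochondrial genes 0.0868 to 0.111%, against 0.456 to 0.563%. Age and these differences cannot be told apart wherever 20-month libraries are compared. The libraries held 3.53 to 5.04 gigabases each. Markers of nucleus pulposus and notochord summed to between 19722 and 20827 FPKM at 2 months, between 16347 and 16531 FPKM at 10 months, and between 16531 and 17012 FPKM at 20 months. Of the 11 listed markers 9 were over the FPKM minimum, and Shh and Foxa2 were near 0. The 9 did not move together between 20 and 2 months. Krt18 was higher, Krt8 and Acan overlapped, and Krt19, Cd24, Tbxt, Ca12, Col2a1 and Sox9 were lower. Markers of plasma cells, which are rich in ER, summed to at most 1.83 FPKM in any library, with none of 5 over the minimum. Skeletal muscle markers reached 244 FPKM in 20-month replicate 3, against 29.9 FPKM or less at 2 months, and fibrous annulus and tendon markers reached 82.2 FPKM in that library, against 17.8 FPKM or less at 2 months. Dcn alone held 66.4 FPKM of that annulus and tendon sum. Thbs4 and Prg4 were also above their 2-month values there, whereas Scx and Col1a1, at 1.31 and 5.09 FPKM, were below theirs. Red blood cell markers summed to between 82.9 and 93.2 FPKM at 2 months, between 9.57 and 10.6 FPKM at 10 months, and between 36.6 and 42.5 FPKM at 20 months. Of 4 adipocyte markers only Lpl was over the minimum, and their sum was 38.6 to 45.7 FPKM at 20 months, against 121 to 125 FPKM at 2 months, with Adipoq and Plin1 near 0. The part of these cells in the results was not tested. In bulk tissue, fewer cells of a type and less RNA per cell cannot be told apart.

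Because FPKM is relative to the whole library, a change in abundant genes moves all others. Another scaling, the median of ratios over all tested genes, moved the median change of all tested genes between 20 and 2 months to −0.001, against −0.197 as deposited, and between 20 and 10 months to 0.001, against −0.228. Changes are as deposited unless a scaling is named, and they are log2 differences of FPKM + 1, which understate the change of low genes. Each change is followed by its standard error, and a gene was called at an adjusted p under 0.05 in limma over all 11708 tested genes.

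As a group the ER folding genes took a smaller share of the RNA at 20 months. Their summed FPKM lay between 6691 and 6726 at 2 months, between 6554 and 6645 at 10 months, and between 5551 and 5708 at 20 months. As a share of all FPKM this is between 1.5 and 1.51% at 2 months, between 1.45 and 1.47% at 10 months, and between 1.23 and 1.26% at 20 months. With the ribosomal protein and mitochondrial genes left out of the total, the share lay between 1.73 and 1.74% at 2 months, between 1.72 and 1.75% at 10 months, and between 1.53 and 1.56% at 20 months. The 20-month libraries lay below all others by both measures, while the 2- and 10-month libraries overlapped once the ribosomal and mitochondrial genes were left out. A single scaling factor per library leaves such shares as they are but moves the sums. The median-of-ratios factors, by which FPKM is divided, were 0.886 to 0.9065 at 20 months. They were 1.045 to 1.05 at 2 months and 1.074 to 1.078 at 10 months. Dividing by them raises the 20-month sums relative to the others, so the fall of the sum depends on the scaling. The deposited fall of the sum between 20 and 2 months was not seen in every role list. The 9 lumenal chaperone and co-chaperone genes summed to between 391 and 397 FPKM at 2 months, between 414 and 423 FPKM at 10 months, and between 370 and 400 FPKM at 20 months. In this list the 2- and 20-month libraries overlapped, while all 20-month libraries lay below all 10-month libraries. The limma moderated F test found a difference among ages for 103 of the 121 members, against 75.4% of all tested genes. The map of all members by library shows that the lower values at 20 months run through most role lists, with single genes that go the other way in several of them.

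**Figure D1:**
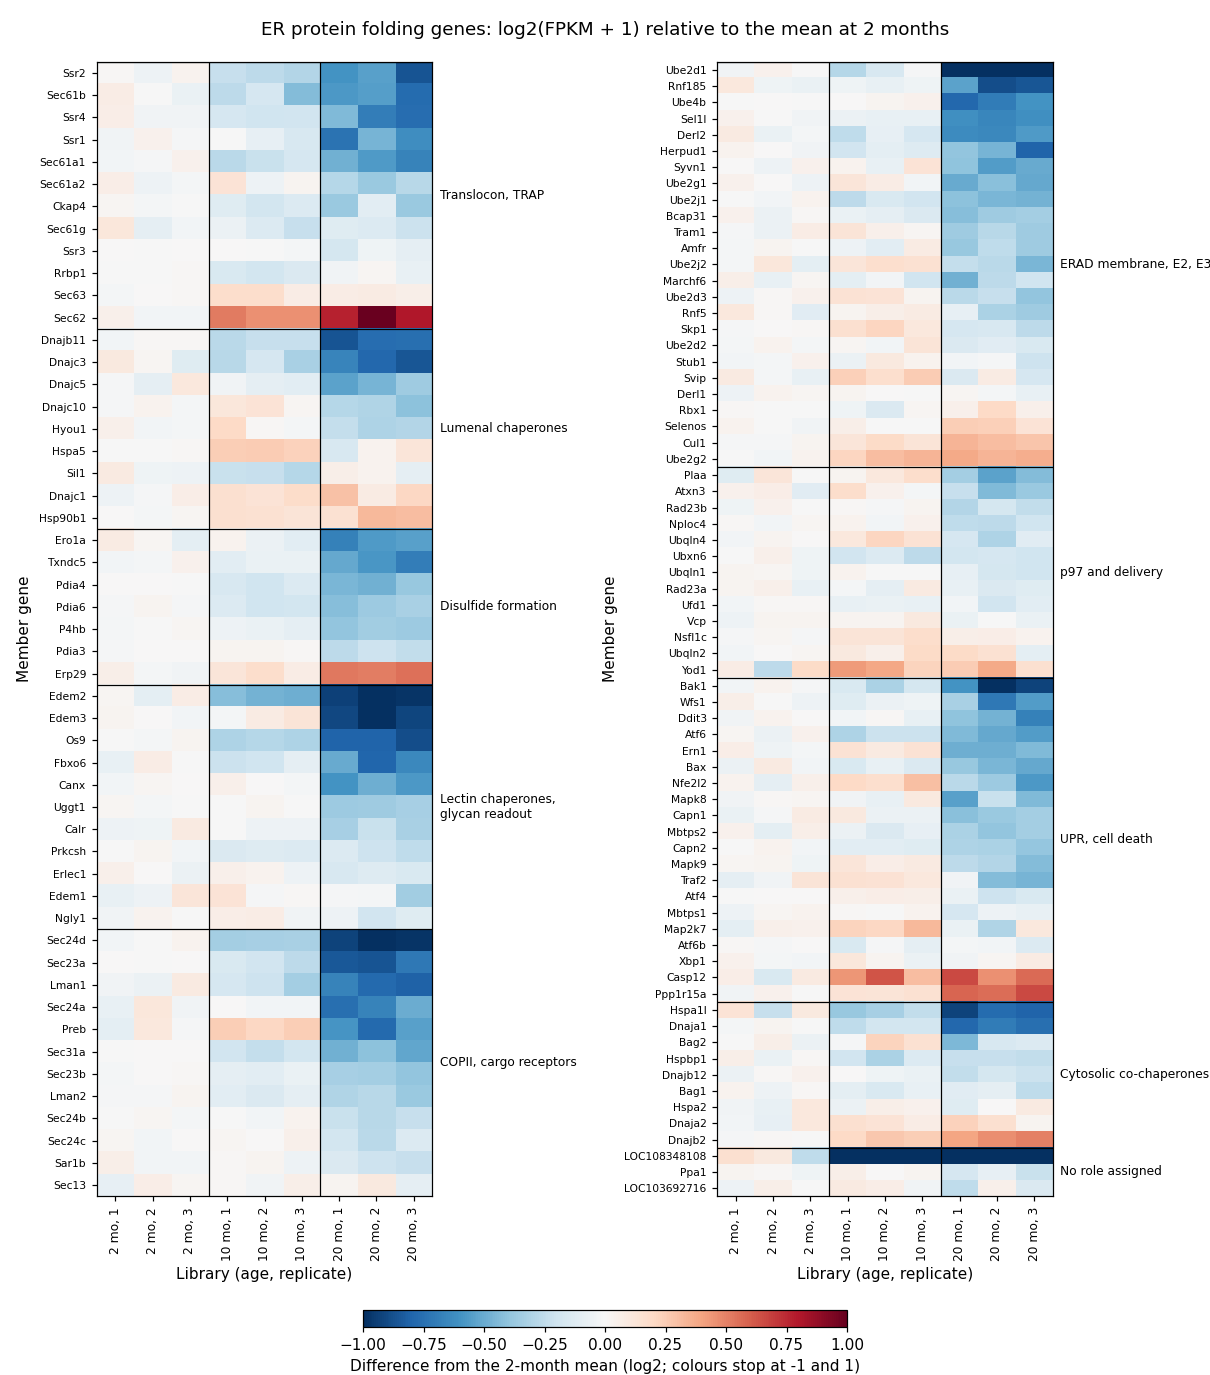
Every member in every library, as log2(FPKM + 1) minus its own mean at 2 months, grouped by role; columns are the 3 libraries each at 2, 10 and 20 months, blue is lower and red is higher than at 2 months, and colours stop at −1 and 1. Most rows are blue at 20 months, and Sec62, Erp29, Dnajb2, Casp12 and Ppp1r15a are among the rows that are red.

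Between 10 and 2 months 12 members rose and 24 fell, against 19% and 11.4% of all tested genes, and 85 passed in neither direction. After median-of-ratios scaling 8 were higher and 31 lower, against 15.1% and 14.5%. The members' median was 0.00 as deposited, beside 0.04 for all tested genes. Of the deposited calls, 6 higher and 14 lower passed under all 19 alternative settings, against 11.2% and 6.82% of all tested genes. The 6 higher ones were Sec62, Casp12, Ube2g2, Dnajb2, Cul1 and Nsfl1c. The 14 lower ones included the COPII genes Sec23a, Sec24d and Sec31a, the disulfide isomerase genes Pdia4 and Pdia6, and the sensor gene Atf6. The number called depended on single libraries: without 2-month replicate 1, 23 were called with 7 of them higher, and without 10-month replicate 2, 7 were called higher.

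Between 20 and 2 months 10 members rose and 87 fell, against 18.6% and 49.6% of all tested genes, and the median change was −0.31, beside −0.20 for all. After median-of-ratios scaling 29 members were higher and 49 lower, against 31.1% and 31.2% of all tested genes, with a median of −0.10, beside 0.00. The 10 that rose passed in every alternative setting, and so did 49 of those that fell, against 15.1% and 30.8% of all tested genes. Without 20-month replicate 3, the library with high muscle markers, 12 rose and 82 fell.

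Between 20 and 10 months, which shares the 20-month libraries with the comparison just given, 10 members rose and 87 fell, against 11.4% and 53.3% of all tested genes. After median-of-ratios scaling 34 were higher and 37 lower, against 26.8% and 25.7%, so the excess of falls over rises in this comparison was not kept under that scaling. The members' median was −0.27, beside −0.23 for all tested genes, and −0.02, beside 0.00, after scaling. In all settings 8 members rose and 36 fell, against 8.78% and 23.9% of all tested genes. Without 20-month replicate 3, 9 rose and 86 fell.

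**Figure D2:**
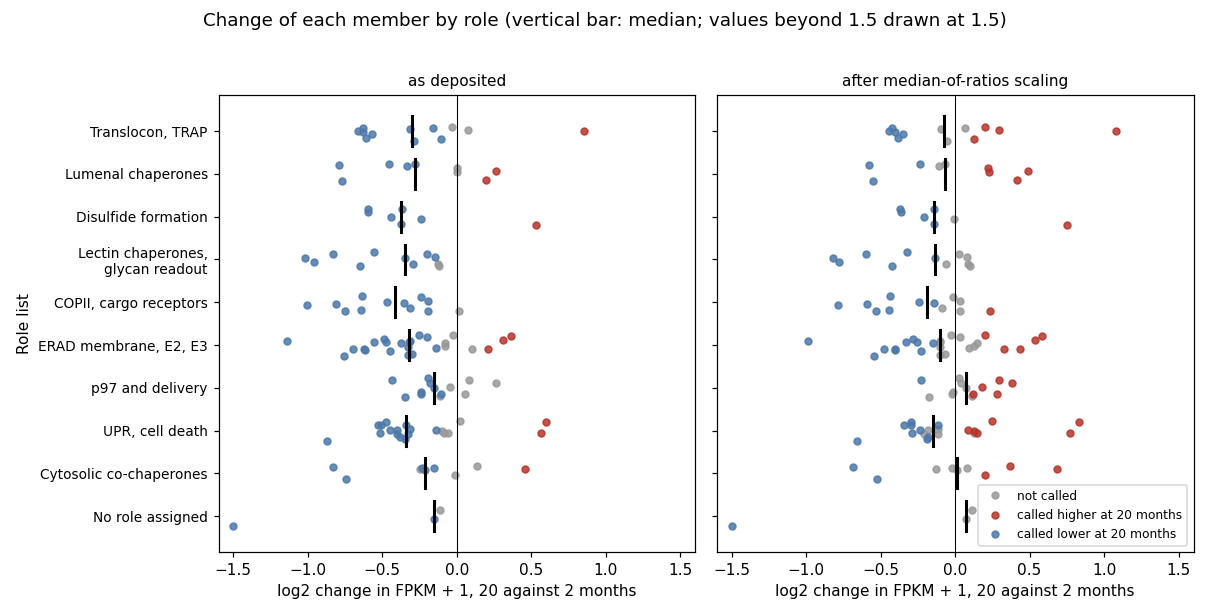
Log2 change in FPKM + 1 of each member between 20 and 2 months by role list, as deposited (left) and after median-of-ratios scaling (right); each point is a gene, red called higher, blue called lower and grey not called by limma, and the vertical bar is the list's median. As deposited 87 members were called lower and 10 higher, and after scaling 49 lower and 29 higher.

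At the gate of the ER, channel subunits fell between 20 and 2 months as deposited while the post-translational entry factor Sec62 rose. Sec62, which with Sec63 lets finished chains enter through Sec61, had 38.3, 36.4 and 36.4 FPKM at 2 months, 53.5, 51.1 and 51.3 at 10 months and 63.6, 74.3 and 65.1 at 20 months. No library of an older age overlapped one of a younger age. The change was 0.48 ± 0.06 for 10 against 2 months (limma adjusted p = 0.00041), 0.85 ± 0.06 for 20 against 2 months (adjusted p = 2.18e-06) and 0.37 ± 0.06 for 20 against 10 months (adjusted p = 0.000433). Sec62 lies at chr2:116189862-116219750 on the minus strand in the coordinates of the table; the sources used here do not name its genome build. Its partner Sec63 rose between 10 and 2 months with a log2 change of 0.14 ± 0.04 (limma adjusted p = 0.0198). That call was lost without 2-month replicate 1 or 2, or 10-month replicate 1 or 2 (limma adjusted p up to 0.0787), and after median-of-ratios scaling (adjusted p = 0.0667). Sec63 was not called between 20 and 2 months as deposited (log2 change 0.07 ± 0.04, limma adjusted p = 0.108) and was higher after median-of-ratios scaling by 0.30 (adjusted p = 0.000124).

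Sec61a1, its main pore subunit, had 21.7, 20.3 and 18.9 FPKM at 20 months, against 30.1, 30.4 and 31.5 at 2 months (log2 change −0.57 ± 0.05, limma adjusted p = 1.36e-05), and the groups did not overlap. Between 10 and 2 months it fell with a log2 change of −0.22 ± 0.05 (limma adjusted p = 0.0126). That call of Sec61a1 was lost without 10-month replicate 1 (limma adjusted p = 0.0519). The small subunit Sec61b had 15.8, 14.9 and 14.2 FPKM at 2 months, 12.4, 13.3 and 10.9 at 10 months and 9.73, 9.92 and 8.38 at 20 months, lower at each age than at the one before. Its fall between 10 and 2 months (log2 change −0.29 ± 0.08, limma adjusted p = 0.0301) was lost without 2-month replicate 1 or 2, or 10-month replicate 1 or 3 (limma adjusted p up to 0.102). The fall between 20 and 2 months passed in all settings (log2 change −0.63 ± 0.08, limma adjusted p = 0.000132). The fall of Sec61b between 20 and 10 months was lost under the other scaling (−0.10, adjusted p = 0.32). Sec61a2, the second pore subunit, and Sec61g, the other small one, changed between 20 and 2 months by −0.31 ± 0.06 and −0.16 ± 0.06 as deposited (limma adjusted p = 0.00104 and 0.0399). Under the other scaling their changes were −0.10 and 0.07 (limma adjusted p = 0.159 and 0.332), so neither call was kept and the sign of Sec61g turned. A single scaling factor per library cannot move the ratio of 2 genes within it, though quantile normalization can. The ratio of Sec62 to Sec61a1 FPKM within a library averaged 1.21 ± 0.0603 (SD, n = 3) at 2 months, 1.99 ± 0.117 (SD, n = 3) at 10 months and 3.34 ± 0.367 (SD, n = 3) at 20 months.

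The translocon-associated protein complex (TRAP), which sits beside the channel and helps insert nascent chains, did not move as a block. Ssr1 had 32.8, 39.7 and 35.6 FPKM at 20 months, against 54.1, 56.9 and 54.98 at 2 months (log2 change −0.61 ± 0.07, limma adjusted p = 4.61e-05), and the groups did not overlap. Ssr2 and Ssr4 fell as well, with log2 changes of −0.67 ± 0.07 and −0.63 ± 0.07 (limma adjusted p = 4.84e-05 and 6.39e-05). Ssr3 was at 76.2 ± 3.65 FPKM at 20 months, against 81.9 ± 0.0231 FPKM at 2 months, and its direction turned with the scaling, from −0.10 as deposited to 0.12 after median-of-ratios scaling (limma adjusted p = 0.0299 and 0.0274). The deposited call of Ssr3 was lost without 2-month replicate 1, 2 or 3, or 20-month replicate 1 (limma adjusted p up to 0.0724). Rrbp1, a ribosome receptor of the rough ER, had 86.5, 86.7 and 87.6 FPKM at 2 months, 78.2, 76.5 and 78.7 at 10 months and 84.8, 87.9 and 82.4 at 20 months. Rrbp1 was lowest at 10 months and fell between 10 and 2 months (log2 change −0.16 ± 0.03, limma adjusted p = 0.00572). It rose between 20 and 10 months (log2 change 0.13 ± 0.03, limma adjusted p = 0.00646), a comparison that shares the 10-month libraries with the one before. Of the 12 translocon and TRAP genes, 2 rose and 4 fell between 10 and 2 months, or 1 and 6 after scaling. The shares of all tested genes were 19% and 11.4%, or 15.1% and 14.5% after scaling. Between 20 and 2 months 1 rose and 9 fell, or 4 and 5 after scaling. The shares of all tested genes there were 18.6% and 49.6%, or 31.1% and 31.2% after scaling.

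Inside the ER, neither the large chaperones nor their helpers moved together. Hspa5, the ER Hsp70 BiP, had 88.8, 88.7 and 89.6 FPKM at 2 months, 106, 106 and 105 at 10 months and 79.6, 91.4 and 96.8 at 20 months. All 10-month libraries lay above all others, and the 2- and 20-month libraries overlapped. Hspa5 rose between 10 and 2 months (log2 change 0.24 ± 0.06, limma adjusted p = 0.0158). That call of Hspa5 was lost without 10-month replicate 2 (limma adjusted p = 0.0518). Between 20 and 10 months it fell as deposited (log2 change −0.24 ± 0.06, limma adjusted p = 0.00643), whereas the change after median-of-ratios scaling was 0.02 (adjusted p = 0.817). Between 20 and 2 months the change was −0.00 ± 0.06 as deposited (limma adjusted p = 0.992) and 0.23 after scaling (adjusted p = 0.0156). Hsp90b1, the ER Hsp90 GRP94, which folds integrins and other clients, had 138, 136 and 139 FPKM at 2 months, 154, 154 and 151 at 10 months and 153, 172 and 171 at 20 months. It was higher at 20 than at 2 months with no overlap and in all settings (log2 change 0.26 ± 0.04, limma adjusted p = 0.000667). Its rise between 10 and 2 months (log2 change 0.15 ± 0.04, limma adjusted p = 0.0343) was lost without 2-month replicate 1, 2 or 3, or 10-month replicate 1, 2 or 3 (limma adjusted p up to 0.102). After median-of-ratios scaling it was 0.11 (adjusted p = 0.137).

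Of the J-domain proteins that work with BiP, Dnajb11, Dnajc3 and Dnajc10 fell as deposited. Dnajb11 (ERdj3), which binds unfolded chains and brings them to BiP, had 24.5, 25.2 and 25.1 FPKM at 2 months, 20.5, 21.1 and 21.1 at 10 months and 13.2, 14.3 and 14.4 at 20 months. Its ages did not overlap, and the fall was −0.24 ± 0.04 for 10 against 2 months (limma adjusted p = 0.00257) and −0.79 ± 0.04 for 20 against 2 months (adjusted p = 6.03e-07). Dnajc3 (p58IPK), which acts with BiP and is known for restraining PERK, had 29.01, 27.4 and 24.9 FPKM at 2 months, 22.1, 23.9 and 21.4 at 10 months and 16.7, 15.2 and 14.5 at 20 months. The Dnajc3 fall between 20 and 2 months (log2 change −0.77 ± 0.07, limma adjusted p = 1.54e-05) passed in all settings. The fall of Dnajc3 between 10 and 2 months (log2 change −0.26 ± 0.07, limma adjusted p = 0.0245) was lost without 2-month replicate 1 or 2, or 10-month replicate 1 or 3 (limma adjusted p up to 0.0877). Dnajc10 (ERdj5), a reductase that opens disulfides of proteins bound for degradation, had 28.1, 27.9 and 25.8 FPKM at 20 months, against 37.4, 38.03 and 35.04 at 10 months (log2 change −0.42 ± 0.05, limma adjusted p = 6.22e-05), and after scaling its change was −0.16 (adjusted p = 0.0137). Its fall between 20 and 2 months (log2 change −0.33 ± 0.05, limma adjusted p = 0.00019) was lost after scaling (−0.11, adjusted p = 0.0541).

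Other BiP partners differed among themselves. Dnajc1 (ERdj1), a J protein of the ER membrane, had 38.1, 32.8 and 35.8 FPKM at 20 months, against 29.8, 30.7 and 32.4 at 2 months (log2 change 0.19 ± 0.06, limma adjusted p = 0.0121). Sil1, which makes BiP release its nucleotide, had 15.4, 13.95 and 13.9 FPKM at 2 months, 12.2, 12.1 and 11.6 at 10 months and 15.03, 14.8 and 13.4 at 20 months. Sil1 was lowest at 10 months, with no overlap with either other age, and changed by −0.25 ± 0.06 between 10 and 2 months (limma adjusted p = 0.0111) and by 0.25 ± 0.06 between 20 and 10 months (adjusted p = 0.00421). Hyou1 (GRP170), the other nucleotide exchange factor of BiP, had 8.96, 8.47 and 8.62 FPKM at 20 months, against 11.2, 10.5 and 10.6 at 2 months (log2 change −0.28 ± 0.06, limma adjusted p = 0.00352), a call lost after median-of-ratios scaling (adjusted p = 0.336). Within a library the ratio of Hspa5 to Dnajb11 FPKM averaged 3.57 ± 0.0516 (SD, n = 3) at 2 months, 5.06 ± 0.0962 (SD, n = 3) at 10 months and 6.38 ± 0.358 (SD, n = 3) at 20 months. The ratio of Hspa5 to Dnajc3 averaged 3.298 ± 0.278, 4.71 ± 0.238 and 5.81 ± 0.971 at the same ages. Both ratios use partners that fell, whereas between 20 and 2 months Dnajc1 rose and Sil1 was not called as deposited. Of the 9 genes of this role list, 2 rose and 5 fell between 20 and 2 months, shares near the 18.6% and 49.6% of all tested genes, and 4 were higher and 3 lower after scaling. The list holds Dnajc5, a co-chaperone on the cytosolic side of vesicles, which is one of the 5 that fell.

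**Figure D3:**
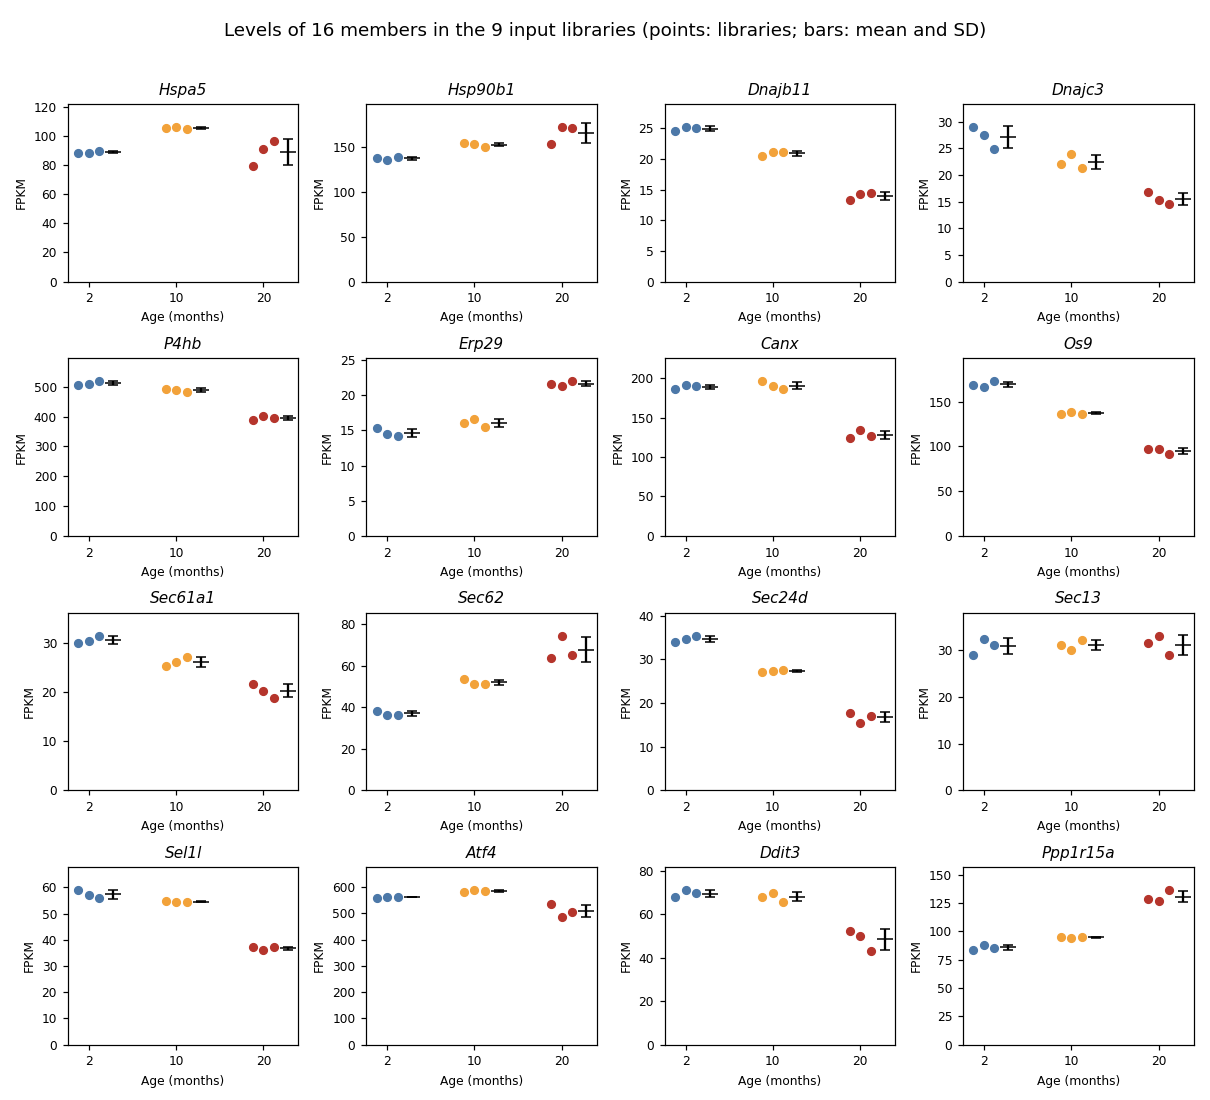
FPKM of 16 members in each of the 9 libraries; points are libraries at 2, 10 and 20 months and the black bar beside them is the mean with its SD (n = 3). Sec62, Erp29 and Ppp1r15a are highest at 20 months, Hspa5 peaks at 10 months, and Dnajb11, Dnajc3, Canx, Os9 and Sec24d are lowest at 20 months.

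The ER stress element (ERSE), which the UPR factors ATF6 and XBP1 are known to bind together with NF-Y, is printed in the promoters of these genes because carriers of the same element had different changes. The windows run from 250 bases before to 50 after the RefSeq start of each gene, read on the gene's strand 5′ to 3′ from the RefSeq GRCr8 annotation, and 96 of the 121 members had one. Capitals mark matches on either strand to CCAAT and CCACG with 9 bases between them (ERSE), ATTGG and CCACG with 1 base between them (ERSE-II) or TGATGCAA (an element bound by ATF4 and CHOP). Hsp90b1 holds 2 ERSE matches, the second on the opposite strand, and Herpud1 an element for ATF4 and CHOP on the opposite strand before its ERSE-II.
Hspa5 (GRCr8 chr3:38452766-38453065, plus strand): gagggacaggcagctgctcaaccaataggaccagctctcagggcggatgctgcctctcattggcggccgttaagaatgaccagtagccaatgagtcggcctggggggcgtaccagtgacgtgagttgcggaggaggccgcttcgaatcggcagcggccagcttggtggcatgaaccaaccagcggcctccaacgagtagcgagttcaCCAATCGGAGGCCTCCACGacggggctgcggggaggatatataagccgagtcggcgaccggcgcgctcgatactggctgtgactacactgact
Hsp90b1 (GRCr8 chr7:23012244-23012543, minus strand): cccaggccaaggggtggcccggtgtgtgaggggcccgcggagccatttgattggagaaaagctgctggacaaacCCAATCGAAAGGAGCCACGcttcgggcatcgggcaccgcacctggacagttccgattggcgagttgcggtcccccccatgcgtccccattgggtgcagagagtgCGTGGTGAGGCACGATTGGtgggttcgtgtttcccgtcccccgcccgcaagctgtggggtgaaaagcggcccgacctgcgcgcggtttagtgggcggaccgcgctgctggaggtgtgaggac
Dnajc3 (GRCr8 chr15:102432417-102432716, plus strand): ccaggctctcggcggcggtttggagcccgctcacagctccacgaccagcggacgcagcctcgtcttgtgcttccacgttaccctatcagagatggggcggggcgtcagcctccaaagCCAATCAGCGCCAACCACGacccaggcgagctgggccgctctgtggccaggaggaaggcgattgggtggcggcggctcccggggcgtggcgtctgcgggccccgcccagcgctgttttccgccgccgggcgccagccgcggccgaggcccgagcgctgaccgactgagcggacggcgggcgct
Canx (GRCr8 chr10:35157808-35158107, minus strand): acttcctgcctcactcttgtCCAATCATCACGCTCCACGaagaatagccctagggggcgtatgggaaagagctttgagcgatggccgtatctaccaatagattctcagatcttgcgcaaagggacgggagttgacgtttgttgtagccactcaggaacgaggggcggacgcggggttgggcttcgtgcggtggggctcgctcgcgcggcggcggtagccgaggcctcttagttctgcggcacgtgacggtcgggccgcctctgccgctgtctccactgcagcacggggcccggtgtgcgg
Dnajb11 (GRCr8 chr11:91672751-91673050, minus strand): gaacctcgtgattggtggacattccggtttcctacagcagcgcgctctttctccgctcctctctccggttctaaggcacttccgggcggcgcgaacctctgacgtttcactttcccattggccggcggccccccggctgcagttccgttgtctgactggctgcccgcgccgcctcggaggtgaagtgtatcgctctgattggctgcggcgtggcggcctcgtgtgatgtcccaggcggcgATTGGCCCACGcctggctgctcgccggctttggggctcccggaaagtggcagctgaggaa
Herpud1 (GRCr8 chr19:10614658-10614957, minus strand): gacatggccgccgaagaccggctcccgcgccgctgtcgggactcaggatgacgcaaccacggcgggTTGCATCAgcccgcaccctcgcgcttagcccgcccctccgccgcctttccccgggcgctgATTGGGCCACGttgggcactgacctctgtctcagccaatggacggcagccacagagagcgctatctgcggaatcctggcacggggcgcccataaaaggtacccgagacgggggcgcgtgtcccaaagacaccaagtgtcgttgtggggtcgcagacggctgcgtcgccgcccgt

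The ERSE was found in 6 of the 96 member promoters (6.25%), those of Hspa5, Hsp90b1, Dnajc3, Canx, Calr and Xbp1, and in 21 of 27457 promoters of the table (0.0765%), members included. Between 20 and 2 months 1 of these 6 genes rose (Hsp90b1), 3 fell (Dnajc3, Canx and Calr) and 2 were not called (Hspa5 and Xbp1). These counts are near the 18.6% and 49.6% of all tested genes that rose and fell. After median-of-ratios scaling Calr was not called (−0.06, limma adjusted p = 0.289). Hspa5 and Xbp1 were then higher by 0.23 and 0.25 (limma adjusted p = 0.0156 and 0.00258). The ERSE-II was found in 3 member promoters (3.13%), those of Dnajb11, Herpud1 and Hyou1, and in 15 of all promoters (0.0546%). All 3 fell between 20 and 2 months as deposited, and Hyou1 was not called after scaling. A core of the UPR element, TGACGTGG, stood in 9 member promoters (9.38%) and in 175 of all (0.637%). Of these 9 genes 1 rose (Ube2g2) and 6 fell between 20 and 2 months, against 18.6% and 49.6% of all tested genes. The motif TGATGCAA stood in 1 member promoter (1.04%), that of Herpud1, and in 204 of all (0.743%). A match describes the letters of a window and not binding, and with 1 to 9 carriers an element, carriers were not set against other members in a test.

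Of the 7 disulfide genes 6 fell and 1, Erp29, rose between 20 and 2 months, or 5 and 1 after scaling. Among all tested genes 49.6% fell and 18.6% rose, or 31.2% and 31.1% after scaling. P4hb, the main protein disulfide isomerase and a subunit of the collagen prolyl hydroxylase, was the highest member after Atf4. P4hb had 389.7, 401 and 397 FPKM at 20 months, against 506, 511 and 518 at 2 months (log2 change −0.37 ± 0.03, limma adjusted p = 2.84e-06), with no overlap. Txndc5 (ERp46), another isomerase, had 103, 98.3 and 91.2 FPKM at 20 months, against 145, 146 and 152 at 2 months (log2 change −0.59 ± 0.04, limma adjusted p = 4.42e-06). Ero1a, the oxidase that recharges the isomerases, had 27.6, 29.8 and 30.3 FPKM at 20 months, against 47.2, 45.2 and 41.7 at 2 months (log2 change −0.60 ± 0.06, limma adjusted p = 2.21e-05). These 3 fell between 20 and 2 months in all settings. The fall of P4hb between 20 and 10 months was lost after scaling (−0.03, adjusted p = 0.356).

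Pdia4 (ERp72) and Pdia6 (P5) had already fallen between 10 and 2 months, with log2 changes of −0.17 ± 0.03 and −0.17 ± 0.04 (limma adjusted p = 0.0067 and 0.00707). Pdia4 had 93.7, 94.1 and 93.2 FPKM at 2 months, 83.9, 81.5 and 84.9 at 10 months and 67.9, 66.8 and 71.7 at 20 months. Pdia6 had 71.3, 73.2 and 71.1 FPKM at 2 months, 65.4, 62.3 and 63.1 at 10 months and 53.1, 55.7 and 57.1 at 20 months. Each age lay below the one before in both genes as deposited, while after median-of-ratios scaling the change of Pdia4 between 20 and 10 months was −0.01 (adjusted p = 0.836). Pdia3 (ERp57), the isomerase that works with calnexin and calreticulin, had 275, 285 and 277 FPKM at 20 months, against 326, 329.8 and 330.0 at 2 months (log2 change −0.24 ± 0.03, limma adjusted p = 3.68e-05). After median-of-ratios scaling the change of Pdia3 was −0.01 (adjusted p = 0.81). Between 20 and 10 months the changes of Pdia3 and Pdia6 turned from −0.26 and −0.20 as deposited to 0.01 and 0.07 after scaling. Erp29, which has the isomerase fold without its redox-active cysteine pair and assists secretion, had 15.3, 14.4 and 14.2 FPKM at 2 months, 16.01, 16.7 and 15.5 at 10 months and 21.6, 21.3 and 21.97 at 20 months. All 20-month libraries of Erp29 lay above all others (log2 change 0.53 ± 0.04, limma adjusted p = 6.25e-06 for 20 against 2 months), in all settings. Summed over the 7 disulfide genes the level was between 1205 and 1221 FPKM at 2 months, between 1158 and 1177 at 10 months, and between 938 and 958 at 20 months. The ratio of Erp29 to P4hb within a library averaged 0.0286 ± 0.00141 (SD, n = 3) at 2 months, 0.0329 ± 0.000994 (SD, n = 3) at 10 months and 0.0547 ± 0.00127 (SD, n = 3) at 20 months.

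None of the 11 genes of the lectin cycle, which reads the sugars of a glycoprotein to hold, refold or discard it, rose between 20 and 2 months, and 9 fell, or 6 after scaling. Among all tested genes 18.6% rose and 49.6% fell, or 31.1% and 31.2% after scaling. Canx (calnexin) had 186, 191 and 189.6 FPKM at 2 months, 196, 189.8 and 186 at 10 months and 124, 134 and 127 at 20 months. The 2- and 10-month libraries overlapped and all 20-month libraries were lower (log2 change −0.55 ± 0.04, limma adjusted p = 1.81e-06 for 20 against 2 months). Calr (calreticulin), its soluble counterpart, had 179, 193 and 180.2 FPKM at 20 months, against 217, 219 and 241 at 2 months (log2 change −0.29 ± 0.05, limma adjusted p = 0.000422). After scaling its change was −0.06 (adjusted p = 0.289). Between 20 and 10 months Calr changed by −0.26 as deposited and by 0.01 after scaling.

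Edem2, Edem3 and Os9, which pick glycoproteins for degradation, had the 3 largest deposited falls of the list between 20 and 2 months. Os9, a lectin that passes trimmed glycoproteins to the ERAD ligase, had 168, 167 and 173 FPKM at 2 months, 136, 138 and 137 at 10 months and 96.6, 96.7 and 91.1 at 20 months. Each age of Os9 lay below the one before (log2 change −0.30 ± 0.03, limma adjusted p = 0.000238 for 10 against 2 months and log2 change −0.83 ± 0.03, limma adjusted p = 1.22e-07 for 20 against 2 months). Edem2, which starts the mannose trimming that marks a protein for degradation, had 11.4, 10.5 and 11.9 FPKM at 2 months, 8.11, 7.802 and 7.75 at 10 months and 5.42, 4.58 and 5.19 at 20 months. It fell with a log2 change of −0.46 ± 0.07 between 10 and 2 months (limma adjusted p = 0.00113) and with one of −1.02 ± 0.07 between 20 and 2 months (adjusted p = 1.95e-06). Edem3, which continues that trimming, had 6.75, 6.64 and 6.47 FPKM at 2 months, 6.53, 7.06 and 7.32 at 10 months and 3.05, 2.69 and 3.03 at 20 months. Edem3 overlapped between 10 and 2 months and was lower in all 20-month libraries (log2 change −0.96 ± 0.06, limma adjusted p = 1.56e-06 for 20 against 2 months). Edem1 in turn was not called in any comparison, with 11.4 ± 1.57 FPKM at 20 months, against 12.4 ± 1.03 FPKM at 2 months (log2 change −0.13 ± 0.10, limma adjusted p = 0.273). Uggt1, the folding sensor that puts glucose back on unfolded glycoproteins, fell with a log2 change of −0.35 ± 0.04 (adjusted p = 2.88e-05), and Fbxo6, a ubiquitin ligase subunit that binds sugars, with one of −0.65 ± 0.07 (adjusted p = 5.26e-05).

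For export, the inner COPII coat fell unevenly between paralogous subunits. Sec24d, one of the 4 Sec24 cargo adaptors among the members and one that is known to be needed for collagen secretion, had 33.9, 34.6 and 35.4 FPKM at 2 months, 27.1, 27.2 and 27.5 at 10 months and 17.7, 15.5 and 17.04 at 20 months. Its ages did not overlap, with −0.33 ± 0.05 for 10 against 2 months (limma adjusted p = 0.00116) and −1.01 ± 0.05 for 20 against 2 months (adjusted p = 3.95e-07). Sec24c had 35.2, 33.1 and 36.2 FPKM at 20 months, against 40.6, 39.3 and 40.1 at 2 months (log2 change −0.20 ± 0.04, limma adjusted p = 0.00179), a call lost after scaling (0.03, adjusted p = 0.534). Of the other Sec24 genes, Sec24a also fell between 20 and 2 months in all settings, and Sec24b fell as deposited but not in all settings. Sec23a, whose loss causes a skeletal dysplasia with poor collagen export in humans, had 26.05, 25.9 and 26.04 FPKM at 2 months, 23.2, 22.6 and 21.6 at 10 months and 14.02, 13.9 and 15.4 at 20 months. Each age of Sec23a lay below the one before (log2 change −0.81 ± 0.05, limma adjusted p = 1.1e-06 for 20 against 2 months). Sec23b, its paralog, fell with a log2 change of −0.35 ± 0.04 between 20 and 2 months (adjusted p = 3.14e-05). The ratio of Sec24d to Sec24c averaged 0.866 ± 0.0264 (SD, n = 3) at 2 months, 0.671 ± 0.00838 (SD, n = 3) at 10 months and 0.48 ± 0.0199 (SD, n = 3) at 20 months. That of Sec23a to Sec23b averaged 1.66 ± 0.0208, 1.52 ± 0.0715 and 1.2 ± 0.102 at the same ages (SD, n = 3). The paralogs share sequence, and reads that could be split between them are uncertain.

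The outer coat parted as well. Sec31a, which forms the cage with Sec13, had 59.2, 59.6 and 59.6 FPKM at 2 months, 51.9, 50.3 and 52.2 at 10 months and 42.4, 44.4 and 41.2 at 20 months. Each age of Sec31a lay below the one before as deposited (log2 change −0.47 ± 0.03, limma adjusted p = 4e-06 for 20 against 2 months). After scaling its change between 20 and 10 months was −0.00 (adjusted p = 0.957). Sec13 had 28.97, 32.4 and 31.2 FPKM at 2 months, 31.04, 30.1 and 32.1 at 10 months and 31.5, 33.04 and 28.9 at 20 months, with overlap at all ages. It was not called between 20 and 2 months as deposited (log2 change 0.01 ± 0.06, limma adjusted p = 0.86) and was higher after scaling by 0.24 (adjusted p = 0.00645). The ratio of Sec13 to Sec31a averaged 0.518 ± 0.0269 (SD, n = 3) at 2 months, 0.604 ± 0.0102 (SD, n = 3) at 10 months and 0.729 ± 0.0248 (SD, n = 3) at 20 months. Sar1b, the GTPase that starts the coat, had 50.5, 48.6 and 47.5 FPKM at 20 months, against 58.4, 54.95 and 54.9 at 2 months (log2 change −0.19 ± 0.04, limma adjusted p = 0.00201). Its sign turned after scaling, to 0.03, and between 20 and 10 months from −0.19 to 0.07. Preb (SEC12), which loads Sar1 with GTP, had 8.29, 9.68 and 8.88 FPKM at 2 months, 10.8, 10.5 and 10.8 at 10 months and 5.601, 4.79 and 5.81 at 20 months. All 20-month libraries of Preb lay below all others (log2 change −0.87 ± 0.07, limma adjusted p = 1.58e-05 for 20 against 10 months). Its rise between 10 and 2 months (log2 change 0.24 ± 0.07, limma adjusted p = 0.0398) was lost without 2-month replicate 1 or 3, or 10-month replicate 1, 2 or 3 (limma adjusted p up to 0.135), and after scaling (adjusted p = 0.0686). Lman1 (ERGIC-53), the cargo receptor for clotting factors, had 16.2, 14.9 and 14.5 FPKM at 20 months, against 25.6, 25.2 and 27.9 at 2 months (log2 change −0.75 ± 0.06, limma adjusted p = 7.78e-06). Of the 12 COPII and cargo receptor genes, 1 rose and 5 fell between 10 and 2 months, or 0 and 6 after scaling. The shares of all tested genes were 19% and 11.4%, or 15.1% and 14.5% after scaling. Between 20 and 2 months none rose and 11 fell, or 1 and 7 after scaling. The shares of all tested genes there were 18.6% and 49.6%, or 31.1% and 31.2% after scaling.

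**Figure D4:**
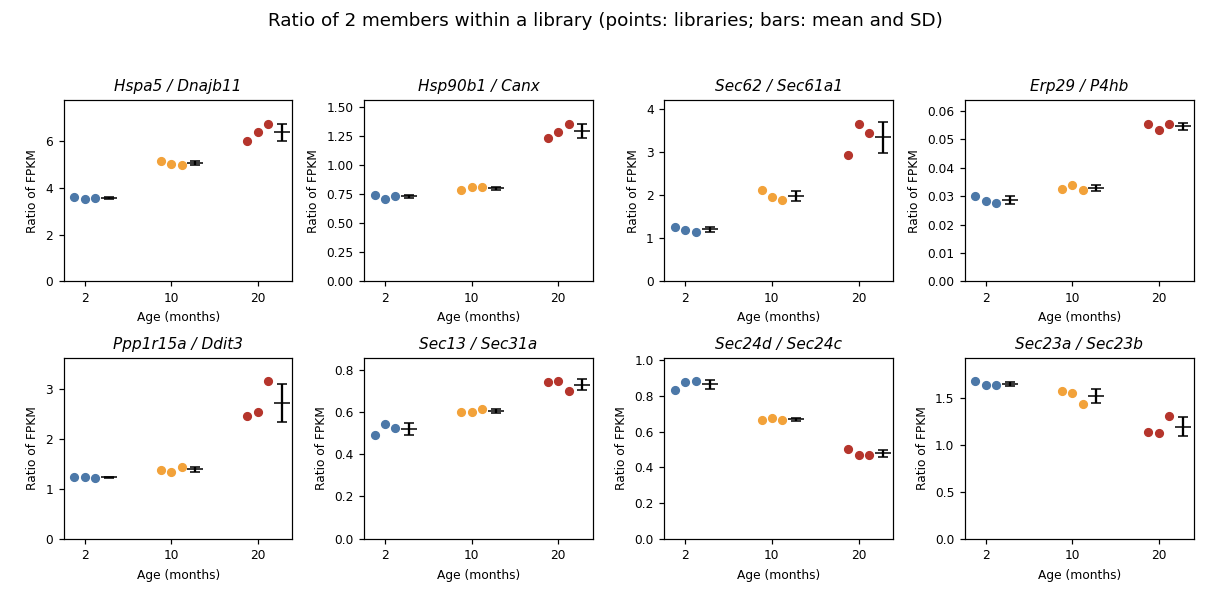
Ratio of the FPKM of 2 members within a library, for 8 pairs chosen after their values were seen; points are libraries at 2, 10 and 20 months and the black bar is the mean with its SD (n = 3). In all 8 pairs no 20-month library overlaps a 2-month library, and the Sec62 to Sec61a1 ratio averaged 3.34 at 20 months and 1.21 at 2 months.

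In the ERAD list, Sel1l, Syvn1, Herpud1 and Derl2 fell between 20 and 2 months, Derl1 was not called as deposited, and Ube2g2, Cul1 and Selenos rose. Sel1l, the adaptor that holds the ligase complex together, had 58.97, 57.1 and 55.9 FPKM at 2 months, 54.9, 54.5 and 54.3 at 10 months and 37.1, 36.03 and 37.2 at 20 months. The 20-month libraries of Sel1l lay below all others (log2 change −0.63 ± 0.03, limma adjusted p = 5.05e-07 for 20 against 2 months). Syvn1 (HRD1), the ubiquitin ligase and channel of that complex, had 8.07, 7.14 and 7.43 FPKM at 20 months, against 11.03, 10.6 and 11.3 at 2 months (log2 change −0.49 ± 0.07, limma adjusted p = 0.000149). Herpud1, a short-lived scaffold of the complex and a UPR target, had 32.7, 31.04 and 24.3 FPKM at 20 months, against 44.3, 43.3 and 42.2 at 2 months (log2 change −0.55 ± 0.09, limma adjusted p = 0.000591). The groups did not overlap in either gene. Derl2, one of the derlins that help proteins leave the membrane, fell with a log2 change of −0.61 ± 0.06 between 20 and 2 months (limma adjusted p = 1.75e-05). Derl1 had 44.8, 43.5 and 41.8 FPKM at 20 months, against 42.5, 45.2 and 44.6 at 2 months and was not called as deposited (log2 change −0.02 ± 0.04, limma adjusted p = 0.596). After scaling Derl1 was higher by 0.20 (adjusted p = 0.000911).

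Among the ubiquitin enzymes, Ube2d1, an E2 with many ligase partners, had 1.63, 1.18 and 1.48 FPKM at 20 months, against 4.202, 4.49 and 4.33 at 2 months (log2 change −1.14 ± 0.09, limma adjusted p = 6.93e-06), the largest deposited fall of the list. Ube4b, which extends ubiquitin chains, had 10.7, 11.4 and 12.3 FPKM at 20 months, against 19.2, 19.3 and 19.1 at 2 months (log2 change −0.70 ± 0.05, limma adjusted p = 2.79e-06). Ube2j1, an E2 anchored in the ER membrane, had 16.8, 16.3 and 16.04 FPKM at 20 months, against 22.6, 22.2 and 23.3 at 2 months (log2 change −0.45 ± 0.04, limma adjusted p = 1.62e-05). Against these, Ube2g2, the soluble E2 of the gp78 and HRD1 ligases, had 14.97, 14.7 and 15.4 FPKM at 2 months, 17.6, 18.8 and 19.2 at 10 months and 19.8, 19.3 and 19.6 at 20 months. Ube2g2 at 2 months lay below both older ages (log2 change 0.29 ± 0.04, limma adjusted p = 0.00139 for 10 against 2 months and log2 change 0.36 ± 0.04, limma adjusted p = 7.17e-05 for 20 against 2 months). Cul1, the scaffold of SCF ubiquitin ligases, had 41.05, 41.1 and 42.3 FPKM at 2 months, 45.3, 47.5 and 45.4 at 10 months and 52.7, 51.7 and 50.4 at 20 months. Cul1 rose in each comparison and in all settings (log2 change 0.31 ± 0.03, limma adjusted p = 4.15e-05 for 20 against 2 months). Selenos (VIMP), a selenoprotein that ties p97 to the derlins, had 58.4, 58.03 and 53.9 FPKM at 20 months, against 50.3, 48.9 and 47.9 at 2 months (log2 change 0.21 ± 0.04, limma adjusted p = 0.00147). The ERAD list also holds Tram1, a membrane protein beside the Sec61 channel, which fell between 20 and 2 months as deposited. Of the 25 genes of this list, 3 rose and 1 fell between 10 and 2 months, or 3 and 4 after scaling. The shares of all tested genes were 19% and 11.4%, or 15.1% and 14.5% after scaling. Between 20 and 2 months 3 rose and 18 fell, or 5 and 10 after scaling. The shares of all tested genes there were 18.6% and 49.6%, or 31.1% and 31.2% after scaling.

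The extraction ATPase p97 and its cofactors were the role list with the least settled direction. Vcp (p97) had 77.3, 80.7 and 77 FPKM at 20 months, against 77.96, 82.2 and 82.3 at 2 months, with overlap. Vcp was not called as deposited (log2 change −0.04 ± 0.04, limma adjusted p = 0.313), but after scaling it was higher by 0.18 (adjusted p = 0.00319). Nploc4, a member of the cofactor pair that feeds ubiquitinated proteins to p97, had 15.6, 15.4 and 16.2 FPKM at 20 months, against 18.8, 18.3 and 19.03 at 2 months (log2 change −0.24 ± 0.04, limma adjusted p = 0.000499). After scaling its change was −0.02 (adjusted p = 0.663). Rad23b, a shuttle to the proteasome, changed between 20 and 10 months by −0.25 as deposited and 0.02 after scaling. Plaa, a ubiquitin-binding p97 cofactor, fell in all settings, with 7.62, 6.52 and 7.11 FPKM at 20 months, against 9.07, 10.9 and 9.9 at 2 months (log2 change −0.44 ± 0.08, limma adjusted p = 0.000795). Nsfl1c (p47), a p97 adaptor, had 90.7, 90.5 and 93.6 FPKM at 10 months, against 82.2, 83.8 and 82.05 at 2 months and rose in all settings (log2 change 0.15 ± 0.03, limma adjusted p = 0.00477). Of the 13 genes none rose and 8 fell between 20 and 2 months as deposited, whereas 5 were higher and 1 was lower after scaling. Among all tested genes 18.6% rose and 49.6% fell, or 31.1% and 31.2% after scaling.

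The UPR sensors Atf6 and Ern1 fell, and the targets of the response differed, while the gene of PERK (Eif2ak3) lies outside the rule. Atf6, a sensor that is cut in the Golgi and drives chaperone genes, had 11.4, 10.7 and 11.6 FPKM at 2 months, 8.91, 9.55 and 9.58 at 10 months and 8.01, 7.59 and 7.305 at 20 months. Each age of Atf6 lay below the one before (log2 change −0.25 ± 0.05, limma adjusted p = 0.00805 for 10 against 2 months and log2 change −0.51 ± 0.05, limma adjusted p = 3.14e-05 for 20 against 2 months). The fall of Atf6 between 20 and 10 months was lost after median-of-ratios scaling (−0.02, adjusted p = 0.761). Ern1 (IRE1), which splices Xbp1 mRNA, had 4.48, 4.08 and 4.19 FPKM at 2 months, 4.81, 4.603 and 4.8 at 10 months and 2.75, 2.74 and 2.86 at 20 months. Ern1 at 20 months lay below both other ages (log2 change −0.47 ± 0.06, limma adjusted p = 6.37e-05 for 20 against 2 months). Xbp1, whose unspliced and spliced forms are not told apart in the gene value, had 54.5, 56.7 and 59.03 FPKM at 20 months, against 57.6, 54.9 and 54.9 at 2 months, with overlap. Xbp1 was not called as deposited (log2 change 0.02 ± 0.05, limma adjusted p = 0.699) and was higher after scaling by 0.25 (adjusted p = 0.00258).

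In the arm of the UPR that acts through eIF2α, the feedback gene rose while Ddit3 fell. Atf4, its central transcription factor and the highest member, had 561, 563 and 562 FPKM at 2 months, 581, 589 and 585 at 10 months and 535, 488 and 505 at 20 months. The sign for 20 against 2 months was −0.14 as deposited (limma adjusted p = 0.00547) and 0.09 after scaling (adjusted p = 0.0318), so no direction is given for Atf4. Between 20 and 10 months it also turned, from −0.20 to 0.07. Ppp1r15a (GADD34), which brings the phosphatase that lifts the block on translation, had 83.6, 88.3 and 85.5 FPKM at 2 months, 94.7, 94.1 and 95.2 at 10 months and 129, 127 and 136 at 20 months. All 20-month libraries of Ppp1r15a lay far above all others (log2 change 0.60 ± 0.04, limma adjusted p = 1.13e-06 for 20 against 2 months and log2 change 0.46 ± 0.04, limma adjusted p = 1.03e-05 for 20 against 10 months), in all settings. Its rise between 10 and 2 months (log2 change 0.14 ± 0.04, limma adjusted p = 0.0173) was lost without 2-month replicate 1 or 3, or 10-month replicate 1 or 3 (limma adjusted p up to 0.07), and after scaling (adjusted p = 0.0682). Ddit3 (CHOP), a transcription factor linked to cell death under long ER stress and known to induce Ppp1r15a, had 67.7, 71.1 and 69.6 FPKM at 2 months, 68.2, 69.97 and 65.8 at 10 months and 52.3, 49.9 and 43.1 at 20 months. The 20-month libraries of Ddit3 lay below all others (log2 change −0.52 ± 0.06, limma adjusted p = 9.51e-05 for 20 against 2 months). The ratio of Ppp1r15a to Ddit3 averaged 1.24 ± 0.00582 (SD, n = 3) at 2 months, 1.39 ± 0.0511 (SD, n = 3) at 10 months and 2.72 ± 0.383 (SD, n = 3) at 20 months.

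The cell death genes of the term did not move together. Casp12, a caspase linked to ER stress in rodents, had 6.45, 5.38 and 6.57 FPKM at 2 months, 8.68, 10.02 and 7.83 at 10 months and 10.3, 8.76 and 9.53 at 20 months. Casp12 at 2 months lay below both older ages (log2 change 0.46 ± 0.10, limma adjusted p = 0.00777 for 10 against 2 months and log2 change 0.56 ± 0.10, limma adjusted p = 0.000807 for 20 against 2 months). Bak1, which permeabilises mitochondria and also acts at the ER, had 11.1, 7.62 and 8.65 FPKM at 20 months, against 17.05, 17.8 and 17.2 at 2 months (log2 change −0.87 ± 0.11, limma adjusted p = 9.83e-05). Its partner Bax had 9.17, 8.66 and 8.31 FPKM at 20 months, against 11.7, 13.1 and 11.96 at 2 months (log2 change −0.45 ± 0.06, limma adjusted p = 9.4e-05). Capn2, a calcium-dependent protease, fell with a log2 change of −0.34 ± 0.03 between 20 and 2 months (limma adjusted p = 2.19e-05), while between 20 and 10 months its change was −0.23 as deposited and 0.04 after scaling. Nfe2l2 (NRF2), which drives antioxidant genes and is a PERK substrate, had 19.4, 18.1 and 15.5 FPKM at 20 months, against 27.2, 26.6 and 29.3 at 10 months (log2 change −0.63 ± 0.08, limma adjusted p = 0.000143). Of the 20 genes of the UPR and cell death, 2 rose and 2 fell between 10 and 2 months, or 1 and 2 after scaling. The shares of all tested genes were 19% and 11.4%, or 15.1% and 14.5% after scaling. Between 20 and 2 months 2 rose and 14 fell, or 6 and 9 after scaling. The shares of all tested genes there were 18.6% and 49.6%, or 31.1% and 31.2% after scaling.

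Cytosolic co-chaperones remain in the term once the named heat shock genes are left out. Dnaja1, a J protein of cytosolic Hsp70, had 58.4, 60.5 and 59.1 FPKM at 2 months, 49.7, 52.1 and 52.1 at 10 months and 33.9, 36.2 and 34.8 at 20 months. Each of its ages lay below the one before (log2 change −0.75 ± 0.04, limma adjusted p = 4.14e-07 for 20 against 2 months). Dnajb2 (HSJ1), which passes Hsp70 clients to the proteasome, had 34.8, 35.3 and 34.9 FPKM at 2 months, 40.4, 42.5 and 41.7 at 10 months and 46.3, 48.8 and 50.1 at 20 months. Each age of Dnajb2 lay above the one before (log2 change 0.46 ± 0.04, limma adjusted p = 7.33e-06 for 20 against 2 months). Hspa1l, an Hsp70 known from testis and a near copy of the inducible Hsp70 genes, had 1.22, 1.48 and 1.42 FPKM at 20 months, against 3.64, 2.597 and 3.505 at 2 months (log2 change −0.83 ± 0.11, limma adjusted p = 0.000104). Reads of near copies can be split between them, so its values are uncertain. Its fall between 10 and 2 months (log2 change −0.32 ± 0.11, limma adjusted p = 0.0489) was lost without 2-month replicate 1 or 3, or 10-month replicate 1, 2 or 3, or 20-month replicate 2 or 3 (limma adjusted p up to 0.162).

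Of the 3 rows given no role, LOC108348108 is described in the table as a heat shock 70 kDa protein 1A gene and LOC103692716 as a heat shock protein HSP 90-alpha gene. They are copies of the cytosolic genes that the name rule left out. LOC108348108 had 89.5, 85.8 and 66.9 FPKM at 2 months, 29.04, 32.2 and 28.03 at 10 months and 0.1602, 0.156 and 15.8 at 20 months (log2 change −4.84 ± 0.87, limma adjusted p = 0.000933 for 20 against 2 months). The library 20-month replicate 3 stood apart in it from the other 2 libraries of its age, and the row is uncertain as a near copy. LOC103692716 had 112 ± 12.2 FPKM at 20 months, against 121 ± 4.48 FPKM at 2 months, and was not called (log2 change −0.12 ± 0.07, limma adjusted p = 0.184). Ppa1, a cytosolic pyrophosphatase, had 60 ± 3.06 FPKM at 20 months, against 66.9 ± 1.69 FPKM at 2 months.

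The other 12 rows of the term were under the FPKM minimum and were not tested. They were Mapk10, Ero1b, Bcl2, Sel1l2, Fbxo2, Hspa4l, Dnajc5b, Sec31b, Derl3, Map3k5, Ube2d4 and Cryaa. Just under it stood Ero1b, the second ER oxidase, at most 0.855 FPKM, Bcl2 at most 0.759 FPKM and Derl3, a derlin induced by the UPR, at most 0.839 FPKM. Just over it stood Bag2 and Yod1, which each reached 1 FPKM in 7 libraries, with highest values of 1.58 and 1.46 FPKM.

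Use of different isoforms by age could be tested for 38 isoforms of 19 member genes, since 79 members have 1 listed isoform and 23 of the 42 with more did not pass the FPKM and share minimums. Of these, 1 was called by limma's moderated F test, against 8.44% of the 2771 isoforms tested. It was the Atf6b isoform ENSRNOT00000000492 (17 exons, 2663 bases, chr20:4414276-4422283 in the table's coordinates, plus strand), whose gene encodes a paralog of Atf6. It held 93.5, 93.9 and 89.96% of Atf6b FPKM at 2 months, 89.01, 86.7 and 87.3% at 10 months and 79.3, 84.3 and 79.01% at 20 months (adjusted p = 0.0352). No 20-month library overlapped a library of another age, and the Atf6b gene level itself was not called between 20 and 2 months as deposited (log2 change −0.06 ± 0.05, limma adjusted p = 0.347), but was higher after scaling by 0.14 (adjusted p = 0.0403). With the replicate number as a block 0 member isoforms were called, and likewise 0 when the minimum summed FPKM was raised to 20. Leaving out each library in turn also gave 0, except for 20-month replicate 2, without which 3 were called. The Ube2j2 isoform ENSRNOT00000077602 held 44.1, 20.9 and 82.5% of its gene's FPKM at 20 months, against 14.04, 10.9 and 9.13% at 2 months, and was not called (adjusted p = 0.0967).

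For genes of the same organelle outside the KEGG term, a list of 64 related ER genes was set beside the members, of which 60 were in the table and 57 were tested. Between 20 and 2 months 5 rose and 33 fell, against 18.6% and 49.6% of all tested genes. After scaling 19 were higher and 24 lower, against 31.1% and 31.2%. The list's median was −0.21 as deposited, beside −0.31 for the members and −0.20 for all tested genes. Fkbp9, a prolyl isomerase of the ER lumen, had 452, 462 and 470.2 FPKM at 2 months, 363, 369.8 and 373 at 10 months and 285, 276 and 276 at 20 months (log2 change −0.73 ± 0.03, limma adjusted p = 1.2e-07 for 20 against 2 months). Tmx1, a disulfide isomerase of the ER membrane, had 50.1, 52.2 and 48.7 FPKM at 2 months, 36.2, 37.2 and 35.7 at 10 months and 29.04, 28.6 and 27.9 at 20 months (log2 change −0.80 ± 0.04, limma adjusted p = 3.11e-07 for 20 against 2 months). Kdelr3, a receptor that returns escaped chaperones to the ER, had 93.1, 85.7 and 87.2 FPKM at 2 months, 62.4, 59.6 and 60.4 at 10 months and 51.9, 48.97 and 45.8 at 20 months (log2 change −0.54 ± 0.05, limma adjusted p = 0.000129 for 10 against 2 months). All 3 had lower values at each age than at the one before as deposited. After scaling the falls of Tmx1 and Kdelr3 between 20 and 10 months were no longer called (−0.08 and −0.05, adjusted p = 0.0908 and 0.435). Emc3, a subunit of the ER membrane protein insertase, fell with a log2 change of −0.73 ± 0.04 between 20 and 2 months (limma adjusted p = 8.67e-07). Txndc12, a thioredoxin of the lumen, and Creb3l2, an ER-bound transcription factor that drives Sec23a in cartilage, fell between 20 and 10 months with log2 changes of −0.55 ± 0.04 and −0.56 ± 0.04 (adjusted p = 8.4e-06 and 1.07e-05).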

How the data were processed

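The deposited gene table gives FPKM per gene, and the deposited isoform table FPKM and read coverage per transcript, per the file headers, for 9 input RNA libraries of rat nucleus pulposus. Tools named without a role in the submitters' processing notes are edgeR, DESeq2, StringTie 1.3.4d, HISAT2 2.0.4 and cutadapt 1.9. The sources used here do not give the genome build, annotation or strandedness, so overlapping and antisense genes cannot be told apart. The tables give no counts, and the bases per library were taken from the constant ratio of FPKM to coverage within it. The precision of a value is therefore given by its spread over 3 libraries.

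Genes that reached 1 FPKM in 3 or more libraries were fitted together in limma 3.58.1 (R 4.3.3). Its empirical Bayes step used a trended prior on log2(FPKM + 1), with 3 contrasts of ages and a moderated F test. Benjamini-Hochberg adjustment ran over 11708 genes. The fit was tested on simulated data. Isoform shares were tested the same way on log2 ratios with 0.5 added, for genes with 2 or more isoforms whose summed FPKM averaged 5 or more, and for isoforms with a share of 10 to 90%. Alternatives were pseudocounts of 0.1 and 5, other minimums, 3 other scalings, pairs of ages alone, array weights, a replicate block and leaving out each library. Deviations from the age mean correlated at −0.04 to 0.0491 between same-numbered libraries of different ages, and at −0.0734 to 0.0628 between differently numbered ones. The labels give no pairing, and with 3 libraries an age these values cannot settle whether the numbers pair them.

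The members, the role lists and the related genes were chosen with earlier results of these data known. Named members were a fixed set of well-known ER genes, the 4 largest called rises and falls per comparison with a mean of at least 5 FPKM, and the 3 members per role list with the smallest moderated F p. Members outside that rule (Cul1, Selenos, Dnajc1, Sec61a2, Sec61g, Sec63, Ssr2, Ssr3, Ssr4, Rrbp1, Ero1a, Edem1, Uggt1, Fbxo6, Sec24a, Sec24b, Sec24c, Sec23b, Derl2, Tram1, Ube2j1, Ube2j2, Nsfl1c, Bak1, Bax, Nfe2l2, Atf6b, Wfs1, Traf2, Mapk8, Mapk9, Map2k7, Prkcsh, Erlec1, Skp1, Ube2d3, Ppa1 and LOC103692716) were named after their values were seen, as were the ratio pairs and promoters. Promoter sequences are from RefSeq (GRCr8), matched by symbol.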

Additional observations from a re-analysis of the deposited data

How the results depend on the processing

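The deposited values hold relative abundance, and median-of-ratios scaling moved the results most. Between 20 and 2 months it gave 29 members called higher and 49 lower and a median change of −0.0974, and between 20 and 10 months 34 higher, 37 lower and a median of −0.0194. Quantile normalization gave 22 higher and a median of −0.158 between 20 and 2 months, and 21 higher, 55 lower and a median of −0.119 between 20 and 10 months. A fixed sum without ribosomal and mitochondrial genes gave a median of −0.233 between 20 and 2 months, and so did a pseudocount of 5, at −0.235. Array weights gave 56 calls between 10 and 2 months, of which 21 were higher. Leaving out 1 library at a time gave 23 to 42 calls there, of which 7 to 16 were higher. With median-of-ratios scaling the signs turned of Sar1b (0.0315 for 20 against 2 and 0.0724 for 20 against 10 months) and Atf4 (0.0876 and 0.0683). For 20 against 10 months so did those of Pdia3 (0.0074), Pdia6 (0.0654), Calr (0.009), Hspa5 (0.0209), Rad23b (0.0151) and Capn2 (0.0364). Other called changes named here turned between 20 and 2 months, to 0.12 (Ssr3), 0.07 (Sec61g), 0.03 (Sec24c), 0.03 (Prkcsh) and 0.08 (Erlec1). The cause was not tested. For isoforms, 0 were called with a minimum summed FPKM of 20, 0 with the replicate block and 0 to 3 when leaving out 1 library at a time. With the replicate block 33 members were called between 10 and 2 months, 97 between 20 and 2 months and 93 between 20 and 10 months, and Preb, Hspa1l and Hsp90b1 were no longer called between 10 and 2 months (adjusted p = 0.0714, 0.0722 and 0.0534), nor Hsp90b1 between 20 and 10 months (adjusted p = 0.0645). No count of fragments is given in the tables, so the counting error of low members such as Bag2 and Yod1 is unknown.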

Other observations

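By the cell component terms of the table, 17 members carry the ER lumen and 44 the ER membrane, 3 of them with both terms, and 63 carry neither. Between 20 and 2 months 2 rose and 13 fell in the lumen, 3 rose and 34 fell in the membrane and 6 rose and 41 fell among the rest. After median-of-ratios scaling these counts were 4 and 9, 10 and 20, and 17 and 20. The shares of all tested genes were 18.6% and 49.6%, or 31.1% and 31.2% after scaling. The median change as deposited was −0.35 in the lumen, −0.33 in the membrane and −0.24 in the rest, beside −0.20 for all tested genes.

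The stress kinase branch that IRE1 feeds through Traf2 was measured in 4 members. Traf2, the adaptor, had 7.27, 5.29 and 5.17 FPKM at 20 months, against 8.44, 8.401 and 8.12 at 10 months (log2 change −0.44 ± 0.11, limma adjusted p = 0.00634). Map2k7, a kinase that activates JNK, had 11.3, 9.46 and 12.8 FPKM at 20 months, against 14.03, 13.8 and 15.1 at 10 months (log2 change −0.34 ± 0.09, limma adjusted p = 0.012). The JNK genes Mapk8 and Mapk9 changed by −0.40 ± 0.09 and −0.42 ± 0.05 (limma adjusted p = 0.00312 and 0.000121). All 4 fell between 20 and 10 months as deposited, and after median-of-ratios scaling the fall of Mapk9 was called (−0.17, adjusted p = 0.0175) and those of Traf2, Map2k7 and Mapk8 were not (adjusted p = 0.126, 0.465 and 0.135). Between 20 and 2 months none of the 4 was among the members called in all settings. Wfs1, an ER membrane protein whose loss causes Wolfram syndrome in humans, had 5.66, 5.38 and 5.17 FPKM at 2 months, 4.898, 5.13 and 5.21 at 10 months and 4.12, 2.91 and 3.36 at 20 months (log2 change −0.53 ± 0.09, limma adjusted p = 0.000782 for 20 against 2 months), with all 20-month libraries below all others. Of the lectin genes with small changes, Prkcsh, a subunit of glucosidase II, changed by −0.20 ± 0.04 and Erlec1, a lectin like Os9, by −0.15 ± 0.04 between 20 and 2 months (adjusted p = 0.000862 and 0.00826). Both calls were lost and both signs turned after scaling (0.03 and 0.08, adjusted p = 0.461 and 0.118). Skp1, an adaptor of SCF ligases, had 169.8, 172 and 173 FPKM at 2 months, 191, 199 and 184 at 10 months and 152, 153 and 143 at 20 months. Skp1 was highest at 10 months (log2 change 0.16 ± 0.04, limma adjusted p = 0.0144 for 10 against 2 months), a call lost without 2-month replicate 1, or 10-month replicate 2 (limma adjusted p up to 0.0594). Ube2d3, the highest E2 among the members, had 148, 152 and 135 FPKM at 20 months, against 198, 196 and 182 at 10 months (log2 change −0.40 ± 0.05, limma adjusted p = 0.000152), a call lost after scaling (−0.13, adjusted p = 0.0514).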
